A study of Mus musculus with 2 samples.

Results

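Pi16 Dpp4 progenitor fibro-adipogenic progenitors (FAPs) were examined in regenerating mouse gastrocnemius on day 14 after injury with cardiotoxin (CTX). A cell counted as a member if Pdgfra, the PDGF receptor that marks FAPs, was detected, the endothelial genes Pecam1 and Cdh5 and the leukocyte gene Ptprc were at 0, and at least 2 of the markers Pi16, Dpp4, Sbsn and Efhd1 were detected. It could hold no more than 1 of Hsd11b1, Mme, Bmper and Aldh1a2, genes of another FAP set, and no more than 2 of the tendon genes Tnmd, Chad, Kera, Scx and Cilp2. The rule found 615 of 13432 cells, 251 of 6354 in the library labelled WT and 364 of 7078 in the library labelled KO. The members were thus chosen by measured values, and the levels of these genes are a description and not a finding.

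FAPs are the mesenchymal stromal cells of muscle. They lie between the fibers, secrete matrix and growth factors that support muscle stem cells after injury, and can turn into fat or scar. FAPs with Pi16 and Dpp4 resemble the progenitor-like fibroblasts of many organs, which lie in connective tissue sheaths and are held to give rise to more specialized fibroblasts.

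The study asked how loss of GSDME, a gasdermin that forms membrane pores and so drives lytic cell death (pyroptosis), affects muscle repair. The cells came from male mice, WT C57BL/6J or carrying a global knockout of Gsdme, all with CTX, a snake venom toxin that destroys fibers, injected into the gastrocnemius. There were 5 mice per genotype, and whether they were pooled is not given in the sources used here. Single cells were profiled in droplets with unique molecular identifiers (UMIs), tags that let each captured RNA molecule count once, and 1 library per genotype was deposited. There was therefore no test between genotypes and no p-value, and the 95% intervals below cover counting error only. A difference between the libraries cannot be told apart from a difference between mice, dissections or preparations.

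The libraries labelled WT and KO held 44758518 and 50930010 UMIs, with medians of 5740 and 5962.5 per cell. Members were deeper, with medians of 9321 UMIs (range, 1059 to 35093) and 9863 UMIs (range, 720 to 38878). The rule favors deep cells, in which 2 markers are detected more easily. Their UMIs summed to 2434954 and 3762919. Gsdme, the gene knocked out, had 10 and 16 UMIs in them, or a level of 4.11 UMIs per 1000000 (CPM, interval 1.97 to 7.55) and 4.25 CPM (2.43 to 6.91). The 2 levels lay within counting error of each other, so each direction below rests on the deposited labels. The 2 libraries shared 4 barcodes, and their members shared 0.

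Pi16, a secreted peptidase inhibitor, was the commonest of the rule's markers, with a UMI in 95.6% and 97.0% of members. Its level was 1808 and 2140.4 CPM, against 246 and 302 CPM in the other FAPs, which are the Pdgfra cells left after members and cells with 3 or more tendon genes were set aside (959 and 1292 cells). Dpp4, a membrane peptidase, was read in 78.1% and 76.4% of members, Efhd1, a calcium-binding mitochondrial protein, in 70.9% and 72.8%, and Sbsn, a secreted protein known from skin, in 41.8% and 37.6%. With every cell cut down to 2000 randomly drawn UMIs, which makes depth equal (thinning), Pi16 was left in 80.9% and 77.1% of members, and in 2.09% and 1.58% of leukocytes (Ptprc detected, Pdgfra at 0), a level that free RNA can give. Dpp4 was left in 35.8% and 35.9% of members, and in 2.65% and 2.99% of leukocytes. Thinning used 246 and 354 members of a median of 9321 and 9863 UMIs, left out 5 and 10, and used 907 and 1137 leukocytes of a median of 6147 and 5886 UMIs.

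All 4 markers were detected in 67 and 95 members, 3 in 83 and 115, and 2 in 101 and 154. The combination of Pi16, Dpp4 and Efhd1 was found in 60 and 92 members and Pi16 with Dpp4 alone in 43 and 71. Among Pdgfra cells within the rule's limits on Hsd11b1, Mme, Bmper, Aldh1a2 and tendon genes, levels of genes that the rule did not use followed the number of markers in both libraries. Sema3c, a secreted guidance protein, stood at 144 and 157 CPM in FAPs with 1 marker, just outside the rule, and at 416 and 441 CPM in members with 2, just inside it. In members with 4 markers it was 1401 and 1575 CPM. Cd248, or endosialin, a membrane glycoprotein of stromal cells, went from 325 and 285 CPM with 1 marker through 617 and 536 with 2 to 1161 and 1104 with 4. Lpl, the lipase that releases fatty acids from lipoproteins, went the other way, from 662 and 627 CPM with 1 marker to 256 and 218 with 4. Depth moved with the number of markers too, from a median of 5603 and 6038 UMIs with 0 to 10505 and 10935 with 4, and its part in these levels was not tested.

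**Figure D1:**
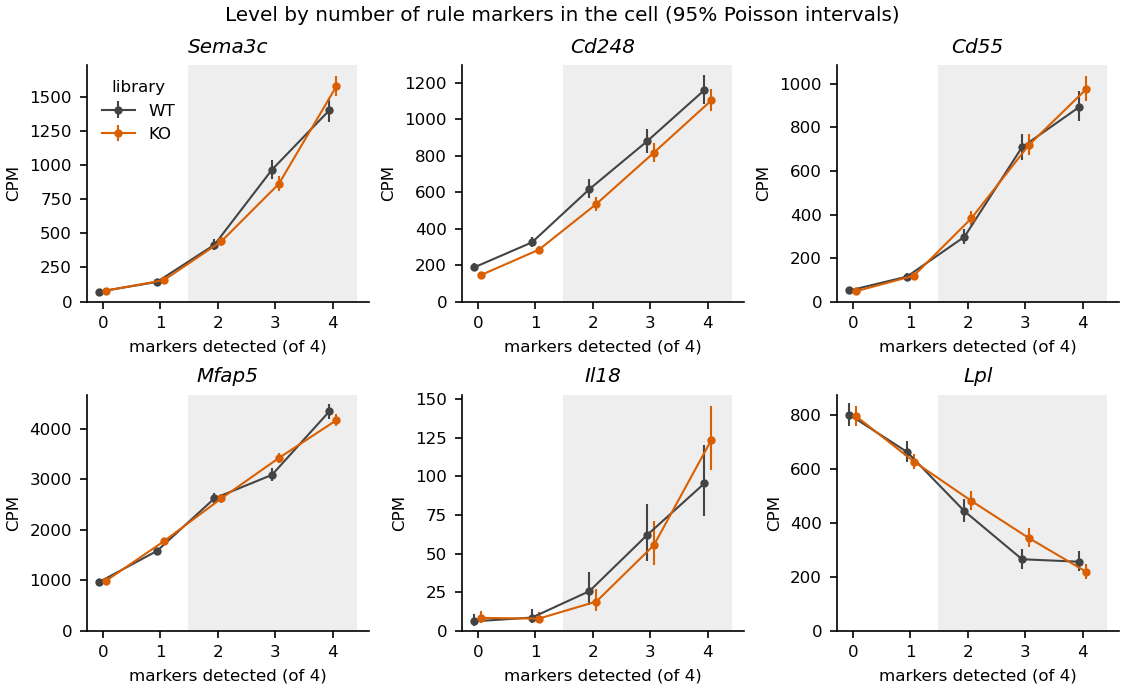
CPM (y axis) of 6 genes that the rule did not use, in Pdgfra cells that meet the rule's limits on Hsd11b1 and tendon genes, by the number of its 4 markers detected, from 0 (x axis), for the library labelled WT (grey) and the library labelled KO (orange), with exact 95% Poisson intervals; the shaded part holds the members. Sema3c, Cd248, Cd55, Mfap5 and Il18 were highest with 4 markers and Lpl with 0, in both libraries.

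Members made up 19.5% (95% interval, 17.4 to 21.8) of the 1286 Pdgfra cells labelled WT and 21% (19.1 to 23.0) of the 1733 labelled KO. The difference of 1.49 percentage points (-1.47 to 4.41) lay within counting error of 0. It was 0.454 points with at least 3 markers asked for. Without the limit on Hsd11b1, Mme, Bmper and Aldh1a2 it was 3.92 points (0.641 to 7.16), an interval without 0. The cells that this limit removes, with 2 or more markers of each set, made up 6.22% and 8.66% of Pdgfra cells. Of all cells, members were 3.95% and 5.14%, a difference of 1.19 points (0.477 to 1.91).

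What members carry beyond the rule was described by the log2 ratio of their CPM over that of the other FAPs, given for the libraries labelled WT and KO in turn. A gene was past the fold if it was at least 2-fold apart in the same direction in both libraries, with intervals without 1. Of 9390 genes compared, 171 were higher in members (1.82%) and 254 were lower (2.71%). Since measured genes chose the cells, this contrast is a description with no test. Of 30 genes known from Pi16 or Dpp4 fibroblasts of other tissues and not used by the rule, 25 were higher and 0 were lower, with medians of 1.87 and 1.93 against 0.037 and 0.031 over all genes. Both markers held back from the rule were among them. Sema3c stood at 887 and 911 CPM in members and 117 and 152 CPM in other FAPs (2.93 and 2.58), and Cd248 at 865 and 793 CPM against 237 and 223 (1.87 and 1.83). Both sat several-fold above the other FAPs although the rule had not used them.

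The gene furthest from the other FAPs was Dmkn, which encodes dermokine, a secreted protein known from skin, at 46.0 and 58.5 CPM in members and 0.277 and 1.13 CPM in other FAPs. The latter rest on 2 and 12 UMIs, so the ratios of 7.38 (5.49 to 10.44) and 5.69 (4.86 to 6.67) have wide intervals. Next came Krtdap, a keratinocyte differentiation peptide, at 85.0 and 65.9 CPM against 1.38 and 1.79 (5.94 and 5.20). Both lie beside the rule's own marker Sbsn on chromosome 7. In the RefSeq annotation of GRCm38.p6, Sbsn spans chr7:30732674-30756134, Dmkn, the next gene, chr7:30763756-30781066, and Krtdap, the one after it, chr7:30787905-30791089. Within members, Dmkn stood at 95.1 and 139 CPM in the 105 and 137 cells with Sbsn detected and at 3.08 and 0.912 CPM in the 146 and 227 cells without. Krtdap was split the same way, 167 and 153 against 13.1 and 3.65 CPM. Other genes were split by Sbsn too, but less widely. Bmp3, which is no neighbor, stood at 53.7 and 62.4 CPM with Sbsn and 16.2 and 5.47 without, and Il18 at 72.2 and 94.2 against 46.2 and 38.3. By the marker Dpp4, Dmkn stood at 50.5 and 74.4 CPM with it and 29.2 and 1.22 without. By Efhd1, Dmkn stood at 52.7 and 73.8 CPM with it and 29.0 and 15.2 without. Both splits of Dmkn were narrower than its split by Sbsn. These splits were looked for after the values had been seen, and the part of depth in them was not tested.

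Secreted ligands were also among the genes furthest above the other FAPs. Bmp3, a BMP family member that opposes other BMPs, was at 33.7 and 29.2 CPM against 0.553 and 0.849 in other FAPs (5.93 and 5.11). Wnt10b, a Wnt ligand that holds back adipogenesis, was at 37.8 and 34.8 CPM against 2.49 and 2.36 (3.92 and 3.88), and Wnt2 at 25.5 and 30.8 CPM against 2.77 and 2.26 (3.20 and 3.77). Dact2, an intracellular Wnt and TGF-β modulator, was higher by 3.74 and 4.53. The guidance genes Sema3e (4.06 and 4.61) and Efna5 (3.59 and 3.46) were higher as well. The other genes among the 15 furthest were Rorb, an orphan nuclear receptor (4.11 and 3.95), the integrin Itgb7 (4.17 and 3.38), Cmah, a sialic acid enzyme (3.72 and 3.33), Sv2c (3.29 and 3.94), Car8 (3.25 and 3.56), Fam167a (3.21 and 3.43) and the growth cone gene Gap43 (3.07 and 4.32). Of 21 Wnt pathway genes compared, 3 were higher (Wnt2, Wnt10b and the decoy Sfrp2) and 2 were lower. Of 28 TGF-β and BMP genes listed and compared, 2 were higher (Bmp6 and Bmp7) and 1, Bmp4, was lower. Bmp3 was not on that list.

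Of 27 growth factor genes, 6 were higher and 5 were lower. Igfbp5, which binds IGFs, was the most abundant of them, at 3085 and 3121 CPM against 554 and 570.4 (2.48 and 2.45). Pdgfc (3.23 and 3.06), Vegfd (2.30 and 1.80), Pdgfd (2.30 and 1.47), Fgf1 (2.12 and 1.98) and Fgf2 (1.5 and 1.26) were the others. Pdgfc and Pdgfd are ligands of PDGF receptors, of which the rule asked for Pdgfra alone. Igf1, the growth factor of muscle fibers, was not past the fold (-0.53 and -0.74).

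Il18, the IL-1 family cytokine that caspase-1 activates, was at 58.3 and 61.7 CPM in members and 8.02 and 9.71 CPM in other FAPs, with log2 ratios of 2.86 (2.41 to 3.33) and 2.67 (2.33 to 3.02). Members held 26.6% and 30.6% of all Il18 UMIs of their library, while they were 3.95% and 5.14% of its cells. After thinning, Il18 was read in 10.2% (95% interval, 6.69 to 14.6) and 11.3% (8.20 to 15.1) of members and in 3.75% and 4.4% of leukocytes. Between the libraries its level in members did not differ beyond counting error (log2 ratio of KO over WT 0.080 [-0.23 to 0.39]). Il18 was chosen for description after its values had been seen.

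Matrix genes were split. Among 19 genes of elastic fibers and microfibrils, Efemp1, Fbn1, Mfap5 and Emilin2 were higher and Fbln7 and Mfap4 were lower. Fbn1, or fibrillin-1, the main microfibril protein, was at 3470.3 and 3503 CPM against 968 and 1156 (1.84 and 1.60), and Efemp1, or fibulin-3, at 561 and 515 CPM against 82.6 and 80.8 (2.76 and 2.67). Of 20 collagen genes and their processing enhancers, Pcolce2 was higher (1.98 and 1.80) and Col4a1, Col4a2 and Col15a1, which form or border basement membrane, were lower. Col15a1, a marker of the other pole of fibroblasts in many organs, was at 177 and 196 CPM against 979.9 and 824 (-2.47 and -2.07). The fibrillar genes Col1a1 (-0.39 and -0.092) and Col3a1 (-0.077 and -0.019) were not past the fold. Among surface genes, Cd55, which protects cells from complement, was higher (2.40 and 2.34), as was Thy1 (1.28 and 1.29), and Ly6a (0.88 and 0.83) and Cd34 (0.95 and 0.89) were not past the fold. The retinoic acid enzyme Aldh1a3 (2.69 and 2.97) and the prostaglandin enzymes Ptgs1 (2.45 and 2.26) and Ptgis (1.08 and 1.83) were also higher. Their lists went both ways: of 11 retinoid genes compared 1 was higher and 1 was lower, and of 12 prostaglandin genes 2 were higher and 3 were lower.

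The gene furthest below the other FAPs was Cxcl14, a chemokine, at 32.4 and 77.9 CPM in members and 1457 and 1087 CPM in other FAPs (-5.49 and -3.80). Crispld2 (-3.07 and -2.74), Smoc2, a matrix protein (-2.64 and -2.28), Apoe (-1.86 and -1.87) and Steap4 (-2.17 and -2.24) were also among the lowest. Genes that mark other FAP sets were lower too: 5 of 10 genes found with Hsd11b1 and Mme, 5 of 9 found with Sfrp4 and Gdf10, and 5 of 8 found with Clu and Myoc. For the first set this direction is favored by the rule, which limits its genes in members. Lpl was at 330.2 and 359.6 CPM against 888 and 809 (-1.43 and -1.17). The 6 markers of mature fat cells in the table, Adipoq among them, were at 0 UMIs in members of both libraries, which allows up to 3 UMIs each.

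**Figure D2:**
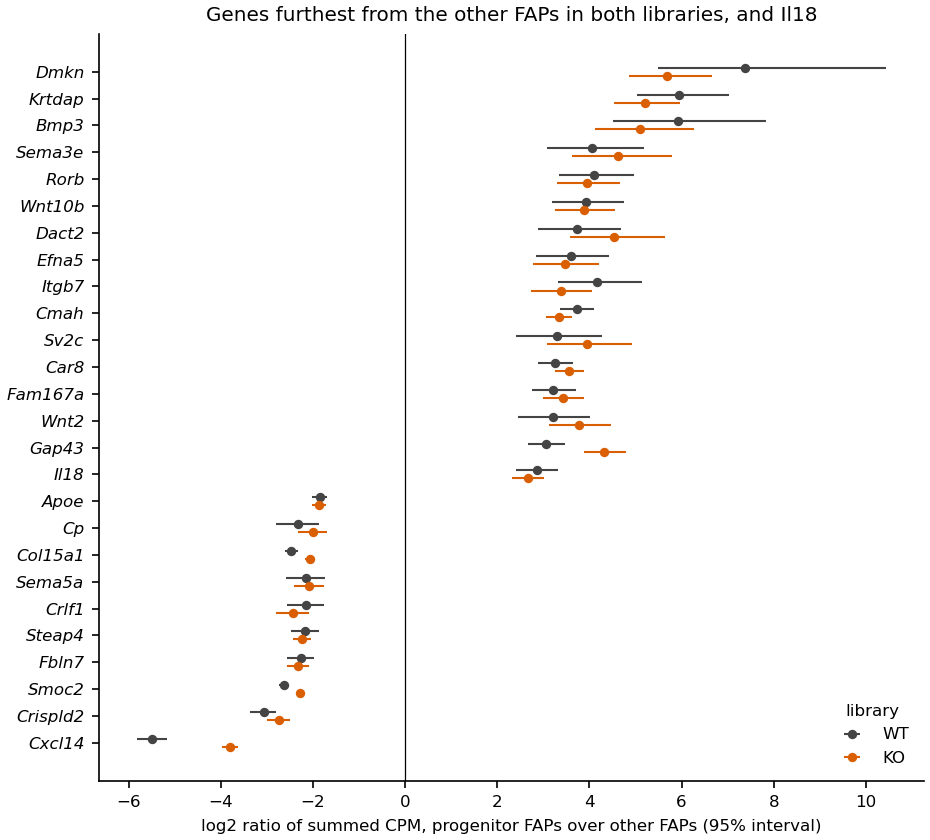
Log2 ratio of CPM in members over the other FAPs (x axis), with 95% intervals, for the 15 genes highest and the 10 lowest in both libraries and for Il18 (y axis), in the library labelled WT (grey) and the library labelled KO (orange). Both libraries lie on the same side of 0 for each gene, from Dmkn (7.38 and 5.69) to Cxcl14 (-5.49 and -3.80).

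Members were then compared between the libraries. Of 8281 genes with at least 50 UMIs, 256 (3.09%) were at least 1.5-fold higher in the library labelled KO with an interval without 1, and 441 (5.33%) were as much lower. In the other FAPs, 382 of 10598 genes (3.6%) were higher and 698 (6.59%) were lower. Over all genes compared in members the median was -0.075 on the log2 scale. Of the genes past the fold, 36.7% were higher, and 52.5% once ratios were centred on this median. Ratios from here on are KO over WT on the log2 scale, uncentred, with the 95% interval in square brackets, and levels are given for WT first. The median of each list is to be read against this background.

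The genes that marked members were close in both libraries. Of the 30 genes of Pi16 or Dpp4 fibroblasts, 0 were past the fold in either direction, with a median of 0.015. Sema3c was at 887 and 911 CPM (0.038 [-0.040 to 0.12]), Cd248 at 865 and 793 CPM (-0.13 [-0.21 to -0.044]), and Ugdh, which makes the sugar precursor of hyaluronan, the highest of them, at 1573 and 2346 CPM (0.58 [0.52 to 0.63]). Of 20 collagen genes 0 were past the fold (median, 0.084), of 19 elastic fiber genes 1, Mfap4, was higher (0.60), and of 80 ribosomal protein genes 0 were past it (median, -0.18).

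**Figure D3:**
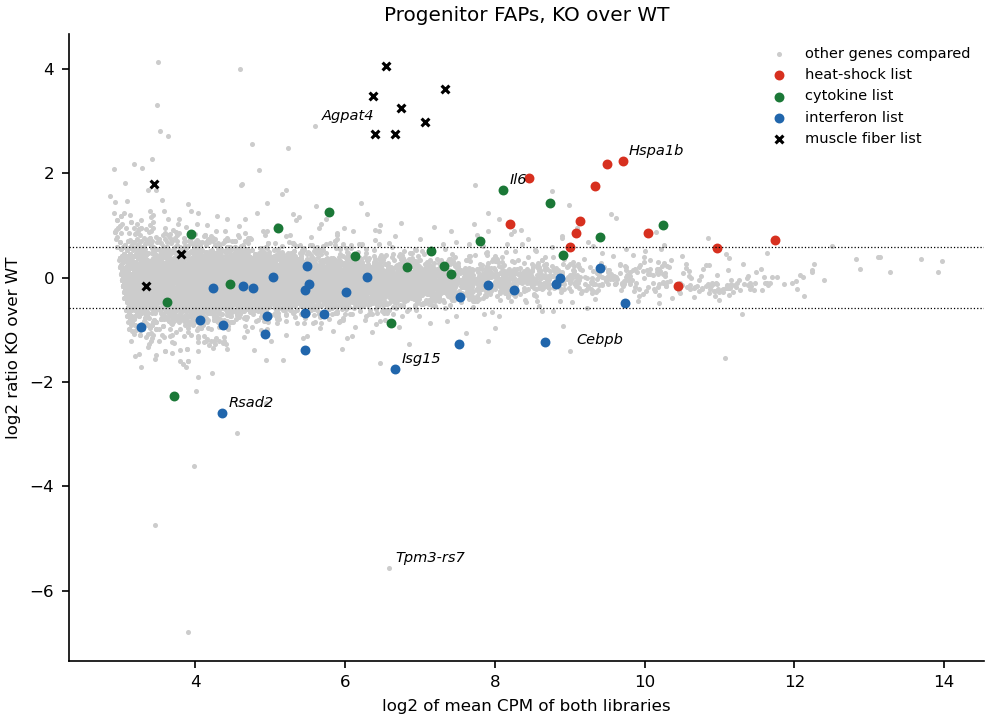
Log2 ratio of KO over WT in members (y axis) against the log2 of the mean CPM of both libraries (x axis) for the 8281 genes compared; the dotted lines mark 1.5-fold. Heat-shock genes (red) and cytokines (green) lie mostly above 0 and interferon genes (blue) mostly below it, and the muscle fiber genes (crosses) stem largely from 1 cell.

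Heat-shock genes were higher in members of the library labelled KO. Of 12 genes of this list, 9 were past the fold upward and 0 downward, with a median of 0.94 against -0.075 over all genes. Hspa1b, an inducible HSP70 chaperone, was at 293 and 1382 CPM, a ratio of 2.24 (95% interval, 2.13 to 2.35), and its near-identical copy Hspa1a at 263 and 1187 CPM (2.17 [2.05 to 2.29]). Reads of this pair may be split between the copies, so each ratio alone is uncertain. Hsph1, which recharges HSP70, was at 147 and 555 CPM (1.91 [1.75 to 2.08]), and the co-chaperone Dnajb1 at 295 and 998 CPM (1.76 [1.64 to 1.88]). The mitochondrial chaperonins Hspd1 (1.03 [0.88 to 1.18]) and Hspe1 (0.85 [0.74 to 0.96]) and the small chaperone Hspb1 (1.08 [0.97 to 1.19]) were also higher. Hspa5, the chaperone of the endoplasmic reticulum, was not, at 1469 and 1313 CPM (-0.16 [-0.22 to -0.099]).

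Summed over the list, members stood at 8765 and 15906 CPM, a ratio of 0.86. The ratio was 0.89, 1.05 and 0.55 in members with 2, 3 and 4 markers, and 0.86 and 0.85 in those at or under and over the median depth of 9712 UMIs. It was 0.97 in the other FAPs, where 11 of 12 genes were past the fold. After thinning, Hspa1b was read in 20.7% (95% interval, 15.8 to 26.3) and 45.5% (40.2 to 50.8) of members and in 55.0% and 64.4% of leukocytes, so it was also common in immune cells of both. How the muscles were dissociated cannot be told apart from the genotype here.

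The heat-shock element, the DNA motif that heat-shock factors bind, was looked for in promoters from 250 bases before to 50 after the start site (RefSeq, GRCm38.p6), as GAA, 2 bases of any kind, TTC, 2 of any kind and GAA, on either strand. It was found in 0.662% of 27025 genes and in 3 of the 10 heat-shock genes with a promoter entry, Hsph1, Hspe1 and Hspd1. Hspe1 and Hspd1 lie head to head and share 1 promoter, whose stretch with the motif, a pair of overlapping matches in capitals, is shown from the Hspe1 side, chr1:55088034-55088101 on the plus strand.
Hspe1: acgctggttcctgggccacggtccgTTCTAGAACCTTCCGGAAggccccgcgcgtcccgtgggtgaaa

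Cytokine and chemokine genes were higher in members of the library labelled KO as well. Of 18 compared, 8 were past the fold upward and 2 downward, with a median of 0.47. Il6, a cytokine of muscle injury and repair, was at 132 and 423 CPM, a ratio of 1.68 (95% interval, 1.51 to 1.86). Ccl7, which draws monocytes, was at 232 and 622 CPM (1.43 [1.29 to 1.56]), and Cxcl1, which draws neutrophils, at 801 and 1618 CPM (1.01 [0.94 to 1.09]). Ccl2, the main monocyte chemokine, was at 499 and 851 CPM (0.77 [0.67 to 0.87]), and 40.4% of its UMIs in the library labelled WT came from 1 cell. Its ratio was 1.42 without the highest cell of each library and 2.44 without the 5% deepest cells. Ccl8 (0.95 [0.51 to 1.41]), Cxcl10 (0.69 [0.53 to 0.86]), Cxcl16 (0.83 [0.17 to 1.52]) and Cxcl14 (1.26 [0.90 to 1.64]) were the other genes past the fold.

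Downward past the fold were Il11, a profibrotic member of the IL-6 family, with 53 and 17 UMIs (-2.27 [-3.15 to -1.46]), a ratio that was -0.81 without the 5% deepest cells, and Cxcl9, a chemokine induced by interferon-γ, at 127 and 69.9 CPM (-0.86 [-1.10 to -0.62]). In members with at least 3 markers 0 cytokine genes were past it downward. The eotaxin Ccl11 (0.42 [0.31 to 0.53]) and the alarmin Il33 (0.51 [0.30 to 0.71]) were within 1.5-fold.

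The summed cytokine level of members was 3118 and 5335 CPM, a ratio of 0.78 (0.74 to 0.81), against 6324 and 7950.1 CPM, or 0.33 (0.31 to 0.35), in other FAPs. In other FAPs, 5 of 24 cytokine genes were higher and 4 were lower. Cxcl14, far more abundant in other FAPs than in members, is part of these sums, and its weight in the ratios was not tested. Whether the ratios of the sets differ could not be tested with 1 library per genotype. Members stood below the other FAPs in both libraries. Their ratio was 0.71, 0.93 and 0.68 with 2, 3 and 4 markers. After thinning, Il6 was read in 14.6% (95% interval, 10.5 to 19.7) and 33.1% (28.2 to 38.2) of members, and in 3.97% and 8.09% of leukocytes. Its ratio in other FAPs was 1.81.

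Among 15 genes of the NF-κB pathway, whose factors drive many cytokines, 7 were higher and 1, Tnip1, was lower (-0.91), with a median of 0.59 in members and 0.53 in other FAPs. Icam1, the leukocyte adhesion molecule, was at 40.2 and 108 CPM (1.43 [1.11 to 1.76]), and Birc3, an inhibitor of apoptosis, at 33.7 and 68.6 CPM (1.03 [0.66 to 1.40]). Of the subunits, Rel (0.66 [0.32 to 1.0]), Relb (0.67 [0.24 to 1.12]) and Nfkb2 (0.59 [0.24 to 0.95]) were past the fold, and Nfkb1 (0.50 [0.38 to 0.63]) and Rela (0.36 [0.14 to 0.59]) were not. The inhibitor Tnfaip3 (1.20 [0.38 to 2.1]) and the regulator Nfkbiz (0.64 [0.46 to 0.81]) were also higher, whereas the inhibitor Nfkbia was at 358 and 408 CPM (0.19 [0.068 to 0.31]). The NF-κB motif, as GGG, 2 bases of any kind and TTCC, or as GGG, 1 base of any kind and ATTTCC, on either strand, was in 6.83% of all promoters. It was in 8 of the 13 genes with an entry among the 17 of the NF-κB list and in 6 of the 19 with an entry among the 29 of the cytokine list, uncompared genes included. Among compared NF-κB genes with an entry, 3 of 5 higher, 1 of 1 lower and 2 of 5 not past the fold had it. Among cytokine genes these were 2 of 5, 1 of 2 and 1 of 5. The motif was also in 3 of 10 heat-shock genes.

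Immediate-early genes, which respond within minutes to growth factors or handling, were less apart. Of 27 compared, 6 were past the fold upward and 0 downward, with a median of 0.24. Btg2 (1.39 [1.27 to 1.51]), Ier2 (1.12 [0.96 to 1.29]), Zfp36, which destabilizes cytokine RNA (0.94 [0.83 to 1.05]), and Maff (0.84 [0.69 to 0.99]) led them. Fos was at 973 and 1491 CPM (0.62 [0.55 to 0.69]), Jun at 947 and 1204 CPM (0.35 [0.27 to 0.42]) and Klf4 at 2319 and 1909.7 CPM (-0.28 [-0.33 to -0.23]). The median member carried 151 and 149 UMIs of the list per 10000, close to each other. Osmr, the oncostatin M receptor, was higher too (0.96 [0.75 to 1.18]), as was Tnfaip6, which cross-links hyaluronan and dampens inflammation (0.75 [0.70 to 0.81]).

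Genes induced by interferons were lower in members of the library labelled KO. Of 28 compared, 0 were past the fold upward and 12 downward, with a median of -0.32. In the other FAPs 7 of 29 were lower, with a median of -0.21. Isg15, a ubiquitin-like modifier, was at 157 and 46.5 CPM, a ratio of -1.76 (95% interval, -2.02 to -1.5), and Rsad2, or viperin, at 35.3 and 5.85 CPM (-2.59 [-3.34 to -1.91]). Ifit1, which binds foreign RNA, was at 261 and 108 CPM (-1.28 [-1.46 to -1.09]). The GTPase Iigp1, at 573 and 245 CPM (-1.23 [-1.35 to -1.11]), is induced by interferon-γ, as is Igtp, at 64.1 and 24.4 CPM (-1.39 [-1.78 to -1.01]). In other FAPs the ratio was -1.78 for Isg15, -0.54 for Ifit1 and -0.35 for Iigp1. The regulators Irf7 (-0.24 [-0.60 to 0.12]), Irf9 (0.22 [-0.14 to 0.59]) and Stat2 (-0.27 [-0.57 to 0.021]) were not past the fold. With members thinned to 2000 UMIs, 4 of the genes were past it. After thinning, Isg15 was read in 18.7% (95% interval, 14 to 24.1) and 6.78% (4.39 to 9.92) of members and in 20.6% and 13.5% of leukocytes.

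The ratio of the summed interferon list was -0.37, with -0.17, -0.60 and -0.38 in members with 2, 3 and 4 markers and -0.23 in other FAPs. Per 10000 UMIs, the middle member carried 38.8 and 33.4 interferon UMIs, and the upper quartile was 73.0 and 54.4. The gap was wider at the upper quartile than at the middle.

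**Figure D4:**
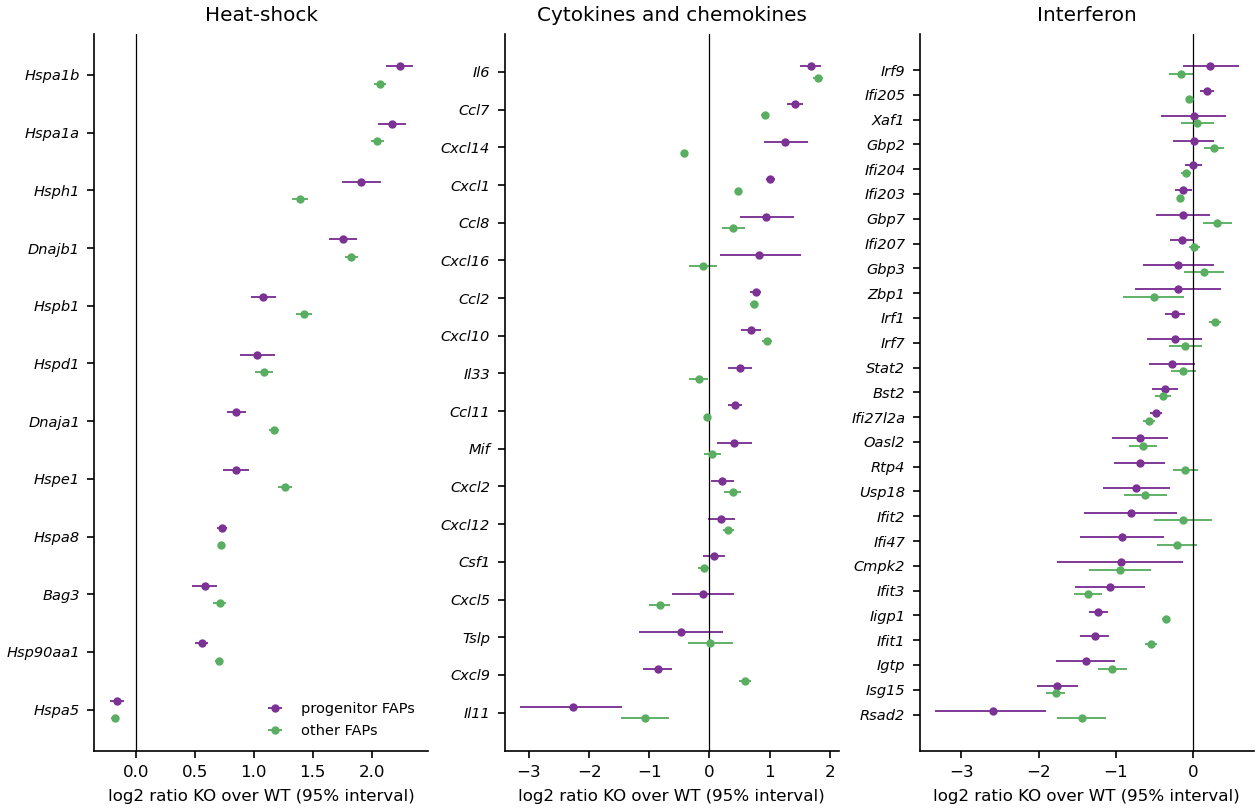
Log2 ratio of KO over WT (x axes, with 95% intervals) for heat-shock, cytokine and interferon genes (y axes), in members (purple) and in other FAPs (green). Heat-shock ratios run from -0.16 for Hspa5 to 2.24 for Hspa1b and interferon ratios from -2.59 for Rsad2 to 0.22 for Irf9 in members; Cxcl14 and Cxcl9 lie on opposite sides of 0 in the sets.

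The interferon-stimulated response element was looked for in the same promoters as TTTC, 2 bases of any kind and TTTC, on either strand. It was found in 3.99% of all genes and in 13 of the 21 interferon genes with an entry, 5 of 9 past the fold downward and 8 of 12 not past it. The stretches below show the 5 lower genes, followed by Gbp2 (0.0041 [-0.26 to 0.27]) and Stat2, which carry the motif and were not past the fold. Matches are in capitals, which run together where matches overlap, as in Isg15. They lie at chr4:156200850-156200921 on the minus strand (Isg15), chr12:26456538-26456597 on the minus strand (Rsad2), chr19:34640760-34640838 on the plus strand (Ifit1), chr19:34583348-34583441 on the plus strand (Ifit3), chr11:58199497-58199555 on the plus strand (Igtp), chr3:142620579-142620638 on the plus strand (Gbp2) and chr10:128270251-128270310 on the plus strand (Stat2).
Isg15: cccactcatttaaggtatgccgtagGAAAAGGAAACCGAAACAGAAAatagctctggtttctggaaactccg
Rsad2: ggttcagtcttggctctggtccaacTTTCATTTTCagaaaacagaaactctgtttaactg
Ifit1: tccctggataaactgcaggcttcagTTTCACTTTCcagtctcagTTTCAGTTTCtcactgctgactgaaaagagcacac
Ifit3: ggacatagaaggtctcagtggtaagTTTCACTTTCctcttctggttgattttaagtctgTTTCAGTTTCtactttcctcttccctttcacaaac
Igtp: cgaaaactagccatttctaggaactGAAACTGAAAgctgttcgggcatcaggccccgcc
Gbp2: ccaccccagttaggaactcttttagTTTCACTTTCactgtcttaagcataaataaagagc
Stat2: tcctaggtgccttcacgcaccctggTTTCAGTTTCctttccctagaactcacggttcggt
A match is a run of letters, not a known site.

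Of the genes of adipogenesis, the fate that gives FAPs their name, 11 could be compared and 3 were past the fold. Cebpb, an early adipogenic factor that also drives inflammatory genes, was lower, at 746 and 283 CPM (-1.40 [-1.51 to -1.29]), as was Cebpa, at 20.5 and 13.3 CPM (-0.63 [-1.22 to -0.033]). Cebpd, its early partner, was higher, at 805 and 1467 CPM (0.87 [0.79 to 0.94]). Pparg, the master factor of fat cells, had 2 and 1 UMIs, and Lpl was at 330.2 and 359.6 CPM (0.12 [-0.0041 to 0.25]). Ddit3, or CHOP, which binds C/EBP proteins and holds back their activity, was higher, at 47.2 and 109 CPM (1.21 [0.91 to 1.52]), the only one of 8 genes known to restrain adipogenesis past the fold upward. Twist1 was past it downward (-0.63 [-0.91 to -0.36]) and 6 were not past it, with a median of -0.27. In other FAPs Cebpb had a ratio of -1.59 and Cebpd one of 0.85, so these differences were not limited to members.

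Over all genes compared, 3.09% were higher and 5.33% were lower. Counts of 0 or 1 in the short lists of this paragraph lie near these shares, and describe single genes and not the lists. Of 10 genes of retinoid handling, 3 were lower and 0 higher (Crabp2 at -1.49, Rbp4 at -1.39 and Dhrs3 at -0.80), and Crabp2 and Rbp4 had 37.5% and 36.1% of their UMIs in the library labelled WT in 1 cell each. Of 12 complement genes, 3 were higher, among them C4b (1.12 [0.76 to 1.5]) and C2 (0.68 [0.066 to 1.32]). Among 24 growth factors Bdnf was higher (1.49 [0.66 to 2.40]) and Fgf2 lower (-0.63 [-0.88 to -0.38]), and Igf1 was at 621 and 749 CPM (0.27 [0.18 to 0.36]). Among 26 TGF-β and BMP genes, Id3 was higher (0.73 [0.60 to 0.87]), and Id2, Id4 and the activin gene Inhba were lower. The list held 1 lower gene by the mean over cells, 1 in members with at least 3 markers and 1 after thinning, when Id4 turned to 0.21. The secreted Wnt inhibitors Sfrp4 (0.68 [0.58 to 0.78]) and Sfrp1 (0.62 [0.30 to 0.95]) were higher among 19 Wnt genes, and Rspo3 and Dkk3 were lower. Mmp3, or stromelysin-1, was at 17.7 and 56.6 CPM (1.68 [1.20 to 2.19]) and had a ratio of 0.11 in other FAPs. Among 12 genes of gasdermins, caspases and cell death, Casp4, the inflammatory caspase that cuts gasdermin D, was higher (0.91 [0.64 to 1.20]) and 0 were lower. Of 25 genes of proteases and their inhibitors, Mmp3 and Adamts15 (0.89 [0.33 to 1.48]) were higher and 0 were lower. Of 9 genes of mesenchymal surface antigens and 9 of prostaglandin synthesis and response, 0 were past the fold. After thinning, 0 retinoid genes were lower, 0 growth factors higher, 0 Wnt genes lower and 0 protease genes higher.

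Outside these lists, the rule for named genes gave Agpat4, an acyltransferase of phospholipid synthesis, with 28 and 323 UMIs and 11.5 and 85.8 CPM (2.9 [2.34 to 3.51]). After thinning it was read in 1.22% and 17.2% of members and in 2.76% and 9.59% of leukocytes, and its ratio in other FAPs was 3.26. Serpina3n, a secreted protease inhibitor, was at 11.5 and 64.3 CPM (2.48 [1.92 to 3.10]). The lowest ratio was that of Tpm3-rs7, at 189 and 3.99 CPM (-5.56 [-6.41 to -4.83]), while Tpm3, of nearly the same sequence, was at 135 and 422 CPM (1.64 [1.47 to 1.82]). Reads can pass from one such copy to the other, so neither is certain, and other FAPs gave -5.05 and 1.96. Lars2 (-1.54 [-1.60 to -1.49]), Mapk9 (-1.64 [-1.92 to -1.37]), Hnrnpa0 (-1.21 [-1.37 to -1.05]), Ppp2cb (-1.58 [-2.06 to -1.11]), Wdfy1 (-1.58 [-2.03 to -1.15]), Samd1 (-1.82 [-2.48 to -1.20]) and Dtx3l (-1.37 [-1.70 to -1.05]) were lower as well. Stmn1 had a ratio of -2.98 with 102 and 20 UMIs, of which 1 cell gave 37.3% in the library labelled WT and 1 cell 65.0% in the library labelled KO, and without those cells the ratio was -3.82.

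Single cells with RNA of other cell types set some ratios. Of 10 muscle fiber genes compared, 8 were past the fold upward, among them Myl1 (4.05), Acta1 (3.62) and Ckm (3.25). The 12 fiber genes summed to 436 and 5372 UMIs, and 4722 of the latter (87.9%) were in 1 cell of 38878 UMIs. Without the highest cell of each library the sums were 133 and 175 CPM, and 2 of the genes were past the fold. In the other FAPs, 9 of 10 fiber genes were higher and 0 were lower, with a median of 0.88. Of 4 erythroid (red blood cell) genes compared in the other FAPs, 4 were higher, with a median of 3.58. The 1 compared in members was not past the fold (0.52). The source of this RNA was not tested. Eno3, the enolase of muscle, had a ratio of 2.57 with 90.2% of its UMIs in the library labelled KO in 1 cell. Of 8 Schwann cell genes listed, 7 summed to 20 and 301 UMIs, 91.0% of the latter in 1 cell, and stood at 7.0 and 7.23 CPM without the highest cells. All 8 summed to 213 and 706 UMIs, or 87.5 and 188 CPM, so most UMIs of the list lay outside these 7 genes. Myeloid genes summed to 523 and 426 UMIs, 70.2% of the former in 1 cell, and to 64.5 and 75.1 CPM without. Such cells may hold more than 1 cell although the authors had removed doublets, a point that was not tested. Of the genes past the fold, 231 of 256 higher and 387 of 441 lower were so without each gene's highest cells too. Without the cells richest in fiber, Schwann, myeloid or cell cycle UMIs, 10 heat-shock genes and 9 cytokine genes were higher and 12 interferon genes were lower. The T and B cell genes Cd3e, Cd3d and Ms4a1 were at 0 UMIs, which allows up to 3 in each library. All 8 lymphoid genes listed summed to 8 and 6 UMIs. Endothelial Cldn5 had 11 and 9 UMIs, but the 10 endothelial genes listed summed to 367 and 383 UMIs, or 151 and 102 CPM. Of 2 endothelial genes compared, 1 was lower and 0 were higher. Of 5 genes of mural cells (smooth muscle and pericytes) compared, 2 were higher and 1 was lower, and the 9 listed summed to 94.9 and 88.0 CPM. Smooth muscle Acta2 was the highest of them (1.18 [0.23 to 2.24]), with 35.7% of its UMIs in the library labelled KO in 1 cell. Without each gene's highest cells, 0 mural genes were past the fold in either direction.

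The 24 genes of division listed summed to 1891 and 2306 UMIs in members, or 777 and 613 CPM. Of 9 compared, 2 were lower and 0 were higher, with a median of -0.35. Over all genes compared, 5.33% were lower. With members thinned to 2000 UMIs, 0 genes of division were lower. Top2a, made by dividing cells, had 52 and 3 UMIs, of which 1 cell gave 48.1% in the library labelled WT. Pcna was at 129.8 and 96.5 CPM (-0.43 [-0.65 to -0.21]), and the inhibitor Cdkn1c at 195 and 196 CPM (0.0067 [-0.16 to 0.18]).

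Cell by cell, heat-shock UMIs were higher in the library labelled KO at each quartile, with the widest gap at the upper one. The median member carried 77.0 and 101 heat-shock UMIs per 10000, the lower quartile was 61.7 and 71.1, and the upper quartile was 98.8 and 157. Cytokine UMIs were shifted over the whole range, with lower quartiles of 10.7 and 18.4, medians of 21.7 and 35.7 and upper quartiles of 35.8 and 69.5. The distributions overlapped for all 3 lists. Cells of 1 library are not replicates, and these values describe the libraries.

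**Figure D5:**
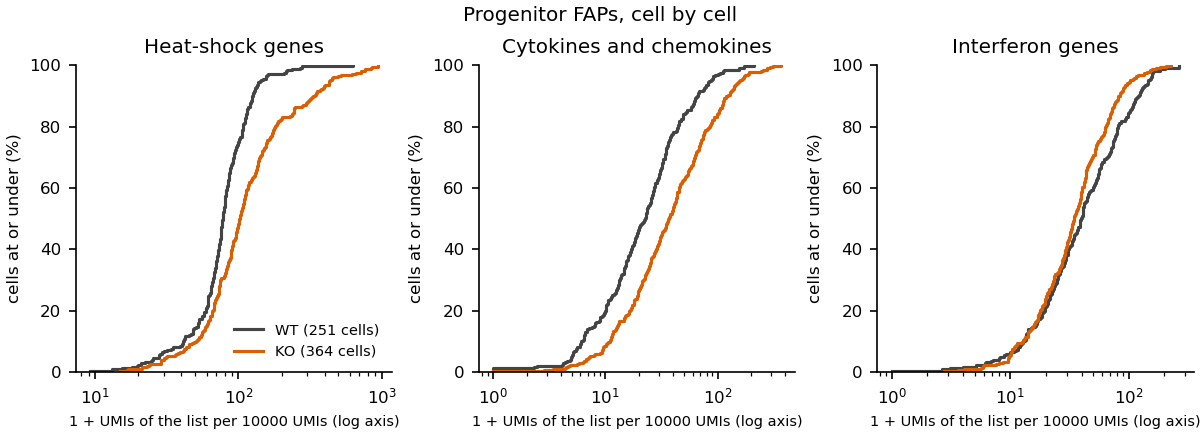
Share of members (y axes, %) with at most a given number of UMIs of the heat-shock, cytokine or interferon list per 10000 UMIs of the cell (x axes, log scale, 1 added), in the library labelled WT (grey, 251 cells) and the library labelled KO (orange, 364 cells). The orange curve lies to the right for heat-shock genes (medians, 77.0 and 101) and cytokines (21.7 and 35.7), and to the left in the upper part for interferon genes.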

How the data were processed

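Cells of gastrocnemius were captured with a droplet kit that reads RNA from its 5′ end, 1 library per genotype. The authors counted UMIs with Cell Ranger (version 2.1.1 on mm10 in the submitters' processing notes, and another version in the methods), removed doublets with DoubletFinder and cells rich in mitochondrial RNA, and deposited the 19169 genes and 13432 cells as 1 table of natural log values, ln(1 + UMIs scaled to 10000 per cell). It lists 0 mitochondrial genes. The log was undone, which returned whole UMIs within 0.247 for 29528482 values, a step tested on simulated data.

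UMIs were summed over the members of a library and given as CPM with exact Poisson intervals. Ratios carry exact intervals from the binomial split of UMIs between the cell sets, shares of cells exact (Clopper-Pearson) intervals and their difference a Newcombe interval, all at 95%. No test was run. Intervals cover counting error only: a gene at 10 UMIs, like Gsdme, cannot be placed within a factor of 2, and a gene at 0 UMIs in a library was set to a floor of 3. The genes used by the rule were left out of comparisons, and predicted genes were counted and not named. Named genes are the 15 furthest each way between libraries by the bound nearest to no change (at least 100 UMIs, same direction as the mean over cells), the 15 highest and 10 lowest over other FAPs, and the list genes. Il18, Tpm3 and the split by Sbsn were added after their values had been seen. The members and the lists were chosen with earlier results of these data known. A few genes are not reported here. Alternatives were other member rules, scalings, UMI minimums, thinning and leaving out cells. Python 3.11.15, numpy 2.4.6, scipy 1.17.1, pandas 2.3.3 and matplotlib 3.10.9 were used.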

Additional observations from a re-analysis of the deposited data

Results flagged for a closer look

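Of the 256 genes higher in members, 106 were past the fold the same way in other FAPs, 145 in neither direction and 5 the opposite way. Of the 441 lower genes, these numbers were 161, 276 and 4. Opposite directions were thus rare. The 8 opposite genes described here were at least 1.5-fold apart in each set, with intervals without 1. The difference between the sets was not tested, since each genotype has 1 library. Cxcl9, the interferon-γ chemokine, had a KO over WT ratio (log2) of -0.86 in members and 0.59 in other FAPs, with levels in members of 127 and 69.9 CPM. Adm, which encodes the vasodilator adrenomedullin, had a KO over WT ratio (log2) of 0.81 in members and -0.59 in other FAPs, with levels in members of 27.9 and 48.9 CPM. Glb1l had a KO over WT ratio (log2) of 1.20 in members and -0.62 in other FAPs, on 13 and 46 UMIs in members. Hook2 had a KO over WT ratio (log2) of 0.86 in members and -0.66 in other FAPs, on 16 and 45 UMIs in members. Cxcl3 had a KO over WT ratio (log2) of -1.45 in members and 1.03 in other FAPs, and 1 member gave 67.4% of its UMIs in the library labelled WT and 1 gave 73.1% in the library labelled KO. The myeloid gene C1qb had a KO over WT ratio (log2) of -1.37 in members and 0.71 in other FAPs, and 1 member gave 67.3% of its UMIs in the library labelled WT and 1 gave 25.8% in the library labelled KO. The myeloid gene Lyz2 had a KO over WT ratio (log2) of -0.86 in members and 0.61 in other FAPs, and 1 member gave 72.9% of its UMIs in the library labelled WT and 1 gave 27.5% in the library labelled KO. The myelin gene Mbp had a KO over WT ratio (log2) of 2.27 in members and -1.49 in other FAPs, and 1 member gave 22.2% of its UMIs in the library labelled WT and 1 gave 85.1% in the library labelled KO. Without the highest cell of each library, Cxcl9 stood at -0.95 and Adm at 0.83, whereas 4 of the 8 were no longer past the fold, Hook2 at 0.65 (-0.37 to 1.75), Mbp at -0.11, C1qb at -0.19 and Lyz2 at 0.56, the direction of the other FAPs.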

How the results depend on the processing

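No paired analysis was possible because each genotype had 1 library. The difference in the share of members (KO minus WT) lay between 0.454 and 3.92 points in 7 alternatives, 1 of them over all cells, and the interval covered 0 in 5 of the 7. With at least 200 UMIs asked for, 117 genes were higher and 113 lower between the libraries, and in cells thinned to 2000 UMIs 135 and 177. Fewer genes could be compared in both settings. Thinned, 4 interferon genes were lower, and 87 genes were higher and 119 lower in members over other FAPs. With at least 3 markers, 444 genes were lower over other FAPs. Muscle fiber genes past the fold numbered 2 without the 5% deepest cells, 1 with at least 3 markers, 2 without each gene's highest cells and 2 without the cells richest in RNA of other types. The last 2 alternatives, like the share without tendon-gene cells, were chosen after seeing the data. Thinned to 1000 UMIs, shares of members with a UMI were 8.76% and 25.1% for Il6, 14.7% and 32.5% for Hspa1b, 9.96% and 3.58% for Isg15, 6.37% and 4.96% for Il18, and 7.16% for Agpat4 in the library labelled KO. The order of the libraries turned for Il18 alone.

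Of 3858 single values under the alternatives, 3176 stayed within the interval, 656 lay outside it, and 26 past the fold turned direction. Most of the 26 belong to fiber, Schwann and myeloid genes. Without the 5% deepest cells, Atp2a1 was at -0.90, Ckm at -0.15, Eno3 at -0.64, Tnnc2 at -0.18, Tnnt3 at -0.083 and Mbp at -0.32. With at least 3 markers, Atp2a1 was at -1.61, Eno3 at -0.72, Tnnc2 at -0.40, C1qb at 0.66, Cd74 at 1.34, Lyz2 at 1.13 and Penk at 0.024. Thinned to 2000 UMIs, Atp2a1 was at -0.20, Egr2 at -0.13, Id4 at 0.21, Lyz2 at 0.42 and Mbp at -0.20. Without each gene's highest cells, Atp2a1 was at -0.63, Cd74 at 0.022, Eno3 at -0.63, Lyz2 at 0.56 and Mbp at -0.11. Without the cells rich in RNA of other types, Atp2a1 was at -0.77, Eno3 at -0.64 and Lyz2 at 0.36. The causes were not tested. With 1 library per genotype and no lower Gsdme RNA, the directions hold for these libraries as labelled, and genes below about 50 UMIs were beyond this depth.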

Other observations

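Pdgfra cells with at least 2 of Hsd11b1, Mme, Bmper and Aldh1a2 and at most 1 progenitor marker made up 29.4% (95% interval, 26.9 to 32.0) of Pdgfra cells labelled WT and 24.8% (22.8 to 26.9) of those labelled KO, which differ by -4.58 points (-7.85 to -1.33). Cells with 2 or more markers of both sets numbered 80 and 150, a difference of 2.43 points (0.490 to 4.33), at medians of 9871.5 and 10569.5 UMIs, close to those of the members.

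Il6ra, the IL-6 receptor, was at 98.6 and 60.6 CPM (-0.70 [-0.97 to -0.43]), its partner Il6st at 238 and 269 CPM (0.18 [0.027 to 0.33]), and Il1rl1, the IL-33 receptor, at 61.6 and 28.4 CPM (-1.12 [-1.49 to -0.75]), with 34.7% of its UMIs in the library labelled WT in 1 cell. Il1r2, the IL-1 decoy receptor, was at 9.04 and 17.0 CPM (0.91 [0.19 to 1.68]). The metallothionein Mt1 was at 4627 and 7033 CPM (0.60 [0.57 to 0.64]) and Mt2 at 2667 and 3691 CPM (0.47 [0.43 to 0.51]), with ratios of 0.58 and 0.42 in other FAPs. Comp, a cartilage and tendon matrix gene, was higher, at 69.8 and 145 CPM (1.05 [0.80 to 1.31]), and 1 cell gave 43.5% and 28.3% of its UMIs.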
